A study of Mus musculus with 12 samples.

Results

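The genes described here are 49 genes of the cell cycle, 34 that act mainly in mitosis (Mki67 to Cdca8) and 15 that act mainly in DNA replication and the entry into it (Mcm2 to Cdt1, called the S-phase genes below). They were given by symbol, and each was read from 1 probe set, the one with the highest mean log2(signal + 16) over 12 arrays. Of the 49 genes, 48 had a probe set (33 mitotic and 15 S-phase), out of 10269 genes tested. Ccnb1, the mitotic cyclin B1, had no probe set under its symbol in the annotation used and is not analysed here. All 48 passed the filter on low values (a signal of at least 100 on 4 or more arrays), 47 of them on all 12 arrays. Tyms, thymidylate synthase, reached 100 on 6 arrays.

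The cells were cultured endothelial cells of newborn wild-type mice, in 3 groups of 4 arrays. Control cells were mock-transfected, tmTNF cells were stably transfected with a transmembrane, non-cleavable mutant of murine tumour necrosis factor (TNF) for chronic activation, and soluble TNF cells were given TNF at 20 ng/ml for 4 h for acute activation. All 3 groups grew in DMEM with fetal calf serum, glutamine, penicillin and streptomycin, and each array took about 5 micrograms of total RNA. The labels do not say whether the tmTNF cells were a clone or a pool, whether the soluble TNF cells had been mock-transfected too, or whether replicates were separate cultures, so the p-values reflect the scatter of these arrays alone, part of which may be technical. Replicates are numbered in accession order, and equal numbers do not pair arrays.

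A dividing cell copies its DNA once in S phase and separates the copies in mitosis. E2F transcription factors switch on the replication genes at the entry into S phase. Later, the MuvB complex with B-Myb and FoxM1 switches on the mitotic genes through promoter elements called CHR. Promoters of mitotic genes often hold CCAAT boxes as well. Endothelial cells in an adult vessel rarely divide, while cultured endothelial cells do, and most of these genes have more RNA in cycling than in resting cells. In RNA from a whole culture, a larger share of cycling cells and more RNA per cycling cell cannot be told apart.

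Promoters are shown for 5 genes whose values are described below, because the 2 gene lists differ in these elements. The windows run from 250 bases before to 50 bases after the RefSeq gene start (build GRCm38.p6), written 5′ to 3′ on the gene's strand, with matches in capitals. The letters searched, on both strands, were TTTCCCGC, TTTCGCGC, TTTGCCGC and TTTGGCGC for E2F, TTTGAA and TTCGAA for CHR, and CCAAT for the CCAAT box. Kif11 lies at chr19:37376132-37376431 (plus strand), Bub1 at chr2:127831810-127832109 (minus), Cdc20 at chr4:118437294-118437593 (minus), Mcm6 at chr1:128359656-128359955 (minus) and Mcm3 at chr1:20820263-20820562 (minus). In the Mcm6 window, matches to TTTGGCGC and to the reverse complement of TTTCGCGC overlap and form one run of capitals.
Kif11: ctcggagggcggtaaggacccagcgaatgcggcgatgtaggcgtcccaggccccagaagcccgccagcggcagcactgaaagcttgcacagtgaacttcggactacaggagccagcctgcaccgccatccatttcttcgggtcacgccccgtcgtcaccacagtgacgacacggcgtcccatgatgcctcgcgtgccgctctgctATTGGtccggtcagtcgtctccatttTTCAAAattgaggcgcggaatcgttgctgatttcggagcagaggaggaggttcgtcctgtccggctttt
Bub1: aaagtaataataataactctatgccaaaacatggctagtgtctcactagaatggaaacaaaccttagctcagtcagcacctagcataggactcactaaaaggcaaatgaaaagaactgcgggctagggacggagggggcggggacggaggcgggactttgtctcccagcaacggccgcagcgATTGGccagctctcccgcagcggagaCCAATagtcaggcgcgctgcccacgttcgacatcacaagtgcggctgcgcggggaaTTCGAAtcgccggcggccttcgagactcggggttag
Cdc20: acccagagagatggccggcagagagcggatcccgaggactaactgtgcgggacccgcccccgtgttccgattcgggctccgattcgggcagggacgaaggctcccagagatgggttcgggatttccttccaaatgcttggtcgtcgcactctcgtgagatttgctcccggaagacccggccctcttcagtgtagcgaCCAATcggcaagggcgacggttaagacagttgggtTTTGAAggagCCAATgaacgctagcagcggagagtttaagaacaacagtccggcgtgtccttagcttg
Mcm6: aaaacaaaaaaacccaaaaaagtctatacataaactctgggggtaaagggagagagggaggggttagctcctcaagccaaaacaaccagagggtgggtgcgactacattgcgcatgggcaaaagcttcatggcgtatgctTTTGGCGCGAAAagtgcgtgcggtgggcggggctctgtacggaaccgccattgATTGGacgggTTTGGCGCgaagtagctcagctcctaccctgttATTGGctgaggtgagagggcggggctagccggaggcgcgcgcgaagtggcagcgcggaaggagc
Mcm3: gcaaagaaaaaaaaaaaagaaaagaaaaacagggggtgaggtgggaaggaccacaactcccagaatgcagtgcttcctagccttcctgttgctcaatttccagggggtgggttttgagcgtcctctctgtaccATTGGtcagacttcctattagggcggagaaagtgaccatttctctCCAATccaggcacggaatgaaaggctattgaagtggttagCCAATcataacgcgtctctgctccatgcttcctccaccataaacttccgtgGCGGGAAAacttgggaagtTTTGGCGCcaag

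The 3 mitotic windows each held a CHR element near the start, beginning 19 bases before it in Kif11, 18 bases before it in Cdc20 and 15 bases after it in Bub1, and each held at least 1 CCAAT box upstream of that. The windows of Mcm6 and Mcm3 held E2F letters, at 3 places in Mcm6 and 2 in Mcm3, and no CHR letters. Windows were found for 43 of the 49 genes (30 mitotic, 13 S-phase); Aurkb, Ccna2, Ccne2, Kif20a, Mcm4 and Tpx2 were unmatched. CHR letters were in 24 of 30 mitotic windows (80%), in 2 of 13 S-phase windows (15.4%, Mcm2 and Mcm7) and in 19.4% of all 27025 windows. CHR and CCAAT letters occurred together in 21 of 30 mitotic windows (70%), 2 of 13 S-phase windows (15.4%) and 7.7% of all windows. E2F letters were in 1 mitotic window (Cdk1, 3.33%), in 6 of 13 S-phase windows (46.2%, Mcm3, Mcm5, Mcm6, Mcm7, Cdc6 and Cdt1) and in 2.32% of all windows. CCAAT letters alone separated the lists less, at 76.7% of mitotic and 61.5% of S-phase windows against 37.9% of all windows. These are matches of letters, not measured binding.

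The arrays differed in ways that touch these genes. The number of probe sets at a signal of 100 or more was 17652 to 19174 per array. The 3′ to 5′ signal ratio of Actb, a measure of RNA integrity, was 1.185 to 1.291 in control, 1.119 to 1.29 in tmTNF and 1.101 to 1.156 in soluble TNF cells. The same ratio of Gapdh was 0.757 to 0.843 in control, 0.767 to 0.894 in tmTNF and 0.776 to 0.839 in soluble TNF cells. All 16 endothelial markers passed the filter, with summed signals of 14283 to 138593 in control, 29273 to 145566 in tmTNF and 34961 to 85798 in soluble TNF cells, and the lowest sums on control 3, tmTNF 2 and tmTNF 4. Of 9 leukocyte markers with a probe set, 4 passed the filter and 5 were under 100 on all 12 arrays, among them the defining markers Ptprc, Adgre1 and Itgam. The leukocyte sum was 815 to 18871 in control, 5228 to 7739 in tmTNF and 620 to 1115 in soluble TNF cells, and was highest on control 1, where Cd68 alone gave 18210. In the mesothelial and epithelial list 2 of 10 markers passed, with sums from 330.9 to 14331. In the fibroblast list 4 of 10 passed (sums 232.8 to 10088), and in the smooth muscle and pericyte list 2 of 8 (sums 1328 to 4018). Tnf itself stayed under 100 on every array, at most 77.2 in tmTNF cells and 25.7 in the other groups. The Y-linked genes Eif2s3y, Kdm5d and Uty gave 218.8 to 1683 on tmTNF arrays and at most 39.5 elsewhere, so the tmTNF label and this difference cannot be told apart.

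The cell cycle genes varied together across the arrays, and varied widely between the replicates of the control and tmTNF groups. Soluble TNF arrays were evenly high, while control and tmTNF arrays ran from the lowest to the highest values of the series. No member passed the threshold (adjusted p of 0.05, limma, over all 10269 genes) in any of the 3 comparisons. In 47 of 48 genes the mean was higher in soluble TNF than in control cells, and in 47 of 48 it was lower in tmTNF than in soluble TNF cells. These 2 comparisons share the soluble TNF arrays.

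**Figure D1:**
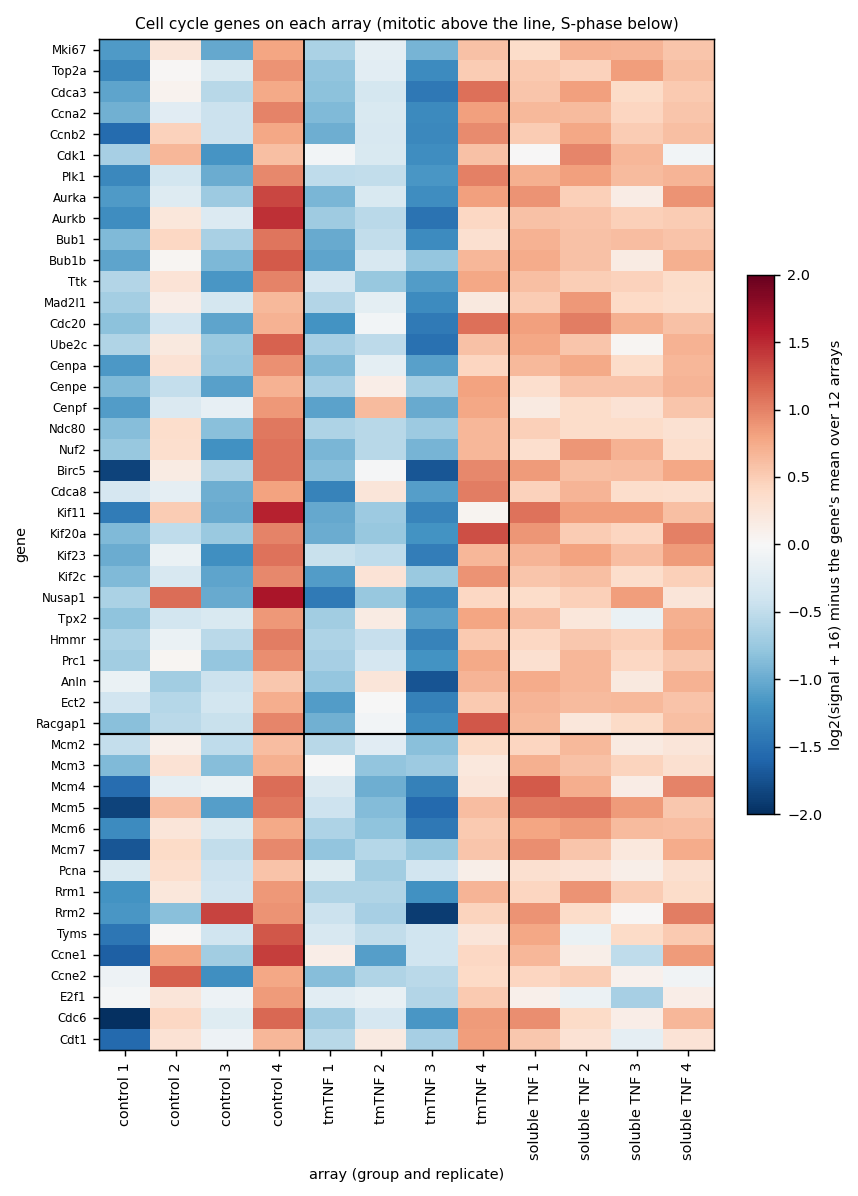
Each row is 1 of the 48 genes and each column 1 of the 12 arrays, with colour giving log2(signal + 16) minus the gene's mean over the 12 arrays. Control 4 and tmTNF 4 are high among their groups in most rows, tmTNF 4 above the other 3 tmTNF arrays in all 48, and the 4 soluble TNF columns are mostly red.

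A list score was taken on each array as the mean, over the genes of a list, of log2(signal + 16) minus the gene's mean over 12 arrays. The mitotic score was -0.91, 0.0, -0.74 and 0.97 on control arrays 1 to 4, -0.83, -0.26, -1.20 and 0.72 on tmTNF arrays 1 to 4, and 0.58, 0.63, 0.47 and 0.57 on soluble TNF arrays 1 to 4. Control 4 thus scored higher than every soluble TNF array, and the other 3 control arrays scored lower than all of them. The S-phase score was -1.15, 0.27, -0.37 and 0.91 in control, -0.43, -0.58, -0.93 and 0.47 in tmTNF and 0.68, 0.47, 0.16 and 0.50 in soluble TNF cells. Both scores put control 4 and tmTNF 4 at the top of their groups. The mean mitotic score was -0.17 ± 0.86 in control, -0.39 ± 0.84 in tmTNF and 0.56 ± 0.07 in soluble TNF cells (SD, n = 4 each). The mean S-phase score was -0.09 ± 0.88, -0.37 ± 0.60 and 0.45 ± 0.22. In both lists the soluble TNF and control means differed by less than the control SD, and the soluble TNF and tmTNF means by more than the tmTNF SD.

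**Figure D2:**
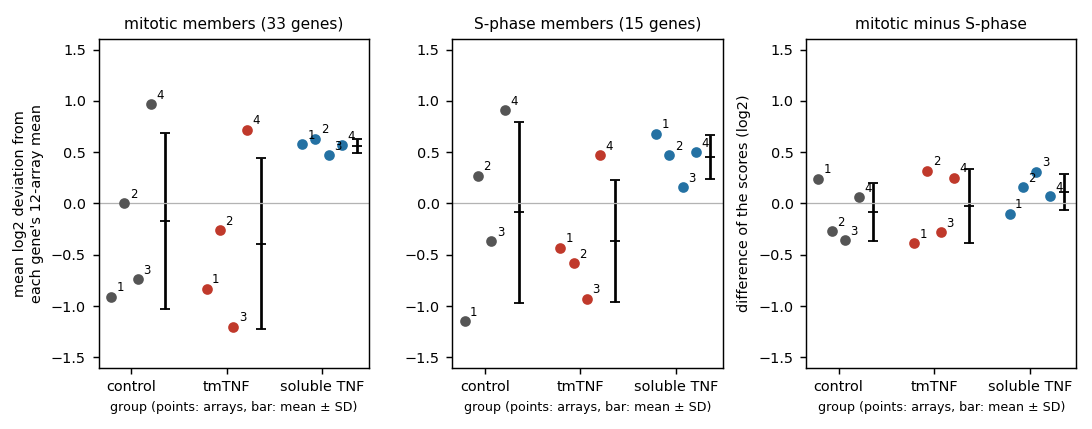
The left and middle panels plot the mitotic and S-phase scores of the 12 arrays (log2, numbered points) with the group mean and SD, and the right panel their difference. Soluble TNF arrays lie between 0.47 and 0.63 in the mitotic panel, inside the control range of -0.91 to 0.97.

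Counts of genes showed the same order of arrays. Control 4 gave the highest signal of all 12 arrays in 29 of 48 genes and tmTNF 4 in 9, while tmTNF 3 gave the lowest in 21 and control 1 in 17. Control 2 and 4 both lay above control 1 and 3 in 41 of 48 genes, an order found in 21.1% of all genes. The array tmTNF 3 lay below the other 3 tmTNF arrays in 37 genes (22.6% of all genes), and tmTNF 4 lay above them in all 48 (24.2% of all genes). Each array was set against the range of the 4 soluble TNF arrays. Control 1 was below that range in 47 genes, control 3 in 45 and control 2 in 35. Control 4 was above it in 35 genes (24.5% of all genes) and below it in 0. Among tmTNF arrays, tmTNF 1 and 3 were each below the soluble TNF range in 46 genes and tmTNF 2 in 43. The array tmTNF 4 was below it in 7, within it in 23 and above it in 18. Soluble TNF had the smallest SD of the 3 groups in 60.0% of all genes, so its range is narrow for many genes. For the other counts against this range, and for the highest and lowest arrays, no share of all genes was taken. The 2 high arrays, control 4 and tmTNF 4, had the lowest Actb 3′ to 5′ ratio of their groups, 1.185 and 1.119. The Gapdh ratio was also lowest among controls on control 4 (0.757). On tmTNF 4 it was 0.814, above tmTNF 2 and 3 (0.787 and 0.767). The part of RNA integrity in the array order was not tested. The 2 lowest control arrays by list score, control 1 and 3, had the 2 highest leukocyte marker sums among controls, 18871 and 3930 against 815 and 1053. Fibroblast marker sums were 358.4, 4167.5, 2011.8 and 8521.1 on tmTNF arrays 1 to 4, highest on tmTNF 4. Mesothelial and epithelial sums there were 330.9, 14330.5, 376.1 and 7210.9. Among controls, both sums were highest on control 3 (10087.7 and 10768.5), against 3459.3 and 602.7 on control 4. The part of these sums in the array order was not tested either.

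Fold changes below are on the log2(signal + 16) scale with the SE of the limma fit, n = 4 arrays per group. The fit takes a single spread per gene over all 3 groups, so a gene's SE is the same in each comparison. Scatter among control arrays thus enters the SE and p of tmTNF minus soluble TNF, although the spread differed by group. Mki67 encodes the Ki-67 protein that coats mitotic chromosomes, and its signals were 1241, 3227, 1331 and 4752 on control arrays 1 to 4, 1765, 2375, 1427 and 4134 on tmTNF arrays and 3537, 4429, 4401 and 4038 on soluble TNF arrays. Its soluble TNF values lay above 3 of the 4 control arrays and below control 4. The log2 fold change was 0.86 ± 0.43 for soluble TNF minus control, -0.87 ± 0.43 for tmTNF minus soluble TNF and -0.01 ± 0.43 for tmTNF minus control. Top2a, the topoisomerase that untangles DNA before chromosomes part, gave 1812, 4491, 3595 and 8257 on control arrays 1 to 4, 2570, 3826, 1849 and 6314 on tmTNF arrays and 6350, 6098, 7884 and 6770 on soluble TNF arrays. Control 4 was again the highest array, and the soluble TNF arrays were close to one another. Top2a differed by -1.04 ± 0.43 between tmTNF and soluble TNF cells (adjusted p = 0.216). Cdca3, which triggers mitotic entry, had values of 0.76 ± 0.50 in soluble TNF against control cells and -0.94 ± 0.50 in tmTNF against soluble TNF cells.

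Cyclins and mitotic kinases start and drive mitosis. Cdk1, the kinase that cyclins A and B activate, had signals of 3140, 7918, 2194 and 7581 on control arrays 1 to 4, 4774, 4033, 2091 and 7465 on tmTNF arrays and 4986, 9762, 7932 and 4787 on soluble TNF arrays. Soluble TNF 2 was the highest of the 12 arrays, while soluble TNF 1 and 4 lay below control 2 and 4, and the log2 fold change was 0.54 ± 0.47 for soluble TNF minus control. Plk1, a kinase of centrosome maturation and mitotic entry, gave 632.4, 1205, 775.9 and 3037 on control arrays 1 to 4, 1087, 1107, 688.3 and 3151 on tmTNF arrays and 2574, 2779, 2431 and 2497 on soluble TNF arrays. The groups overlapped, since control 4 and tmTNF 4 exceeded every soluble TNF array. Plk1 was 2.2-fold higher in soluble TNF than in control cells (log2 1.14 ± 0.50, adjusted p = 0.38). Aurkb, the kinase of the chromosomal passenger complex, gave 545.8, 1543, 1086 and 3646 on control arrays 1 to 4, 800.5, 903.5, 465.8 and 1771 on tmTNF arrays and 1995, 1955, 1837 and 1886 on soluble TNF arrays. All 4 tmTNF arrays lay below all 4 soluble TNF arrays, with tmTNF 4 closest, and the log2 fold change was -1.11 ± 0.50 (adjusted p = 0.246). Ccna2, Ccnb2 and Aurka had values of 0.72 ± 0.45, 0.79 ± 0.52 and 0.80 ± 0.53 in soluble TNF against control cells and of -0.98 ± 0.45, -1.01 ± 0.52 and -1.01 ± 0.53 for tmTNF minus soluble TNF.

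The spindle checkpoint holds the anaphase-promoting complex (APC/C) back until every chromosome is attached. Bub1, a checkpoint kinase at kinetochores, gave 1050, 2595, 1238 and 4118 on control arrays 1 to 4, 955.1, 1370, 805.7 and 2442 on tmTNF arrays and 3150, 2929, 2986 and 2907 on soluble TNF arrays. The tmTNF and soluble TNF arrays did not overlap, and Bub1 was 2.34-fold lower in tmTNF cells (log2 -1.23 ± 0.43, adjusted p = 0.153). Mad2l1, which sequesters the APC/C activator, gave 2190, 3872, 2759 and 5518 on control arrays 1 to 4, 2343, 3068, 1462 and 4026 on tmTNF arrays and 5020, 6475, 4669 and 4505 on soluble TNF arrays. It too was separated between tmTNF and soluble TNF cells (log2 -0.999 ± 0.33, adjusted p = 0.141). Cdc20, the APC/C activator itself, gave 3417, 4673, 2930 and 9793 on control arrays 1 to 4, 2637, 5831, 2281 and 13020 on tmTNF arrays and 10730, 12320, 9913 and 9137 on soluble TNF arrays. Here tmTNF 4 was the highest of all 12 arrays, so the groups overlapped despite a 2.26-fold lower mean in tmTNF cells (log2 -1.17 ± 0.51, adjusted p = 0.227). Cdc20 was also 2.26-fold higher in soluble TNF than in control cells (log2 1.17 ± 0.51, adjusted p = 0.374). Ube2c, a ubiquitin-conjugating enzyme of the APC/C, gave 5426, 9469, 4946 and 18680 on control arrays 1 to 4, 5191, 5725, 2931 and 12370 on tmTNF arrays and 14120, 12120, 8505 and 13330 on soluble TNF arrays. Its highest array was control 4, and its tmTNF minus soluble TNF value was -1.04 ± 0.46 (adjusted p = 0.234). Bub1b and Ttk, 2 further checkpoint kinases, had values of -0.92 ± 0.49 and -0.85 ± 0.47 in that comparison.

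Centromere and kinetochore genes build the site where microtubules attach. Cenpa, the histone H3 variant of centromeres, gave 1152, 3143, 1498 and 4864 on control arrays 1 to 4, 1383, 2232, 1195 and 3470 on tmTNF arrays and 4007, 4335, 3295 and 4090 on soluble TNF arrays. Control 4 lay above the soluble TNF range and the other control arrays below it, with a log2 fold change of -1.04 ± 0.44 for tmTNF minus soluble TNF (adjusted p = 0.219). Cenpe, a kinesin that carries chromosomes to the spindle equator, gave 392.7, 523.7, 337.9 and 1207 on control arrays 1 to 4, 461.7, 813.2, 452.7 and 1308 on tmTNF arrays and 931.8, 1109, 1106 and 1188 on soluble TNF arrays. Its tmTNF mean lay above the control mean (0.34 ± 0.41), and it had the lowest p of the 48 genes for soluble TNF minus control (0.98 ± 0.41, adjusted p = 0.367). Birc5, survivin, a subunit of the passenger complex, gave 1362, 5522, 3272 and 10520 on control arrays 1 to 4, 2725, 4863, 1498 and 9638 on tmTNF arrays and 8917, 7549, 7587 and 8482 on soluble TNF arrays. Control 1 was the lowest and control 4 the highest of the 12 arrays, and the soluble TNF minus control value was 1.01 ± 0.61 with an adjusted p of 0.508. Cenpf, Ndc80, Nuf2 and Cdca8, the other members of the group, had soluble TNF minus control values of 0.53 ± 0.48, 0.44 ± 0.43, 0.70 ± 0.48 and 0.63 ± 0.49.

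Among spindle motors and microtubule proteins, Kif11 differed most. It encodes the kinesin that pushes spindle poles apart, and gave 213.1, 844.8, 286 and 1738 on control arrays 1 to 4, 282.5, 350.7, 225.4 and 614.8 on tmTNF arrays and 1267, 1064, 1067 and 897 on soluble TNF arrays. No tmTNF array reached the lowest soluble TNF array. Kif11 was 3.01-fold lower in tmTNF than in soluble TNF cells (log2 -1.59 ± 0.55, adjusted p = 0.148), the largest of the 48 log2 differences in that comparison. Kif23, a motor of the central spindle, gave 754, 1373, 641.4 and 3224 on control arrays 1 to 4, 1103, 1056, 569 and 2405 on tmTNF arrays and 2445, 2668, 2335 and 2743 on soluble TNF arrays. It was lower in tmTNF cells by a log2 value of -1.16 ± 0.49 (adjusted p = 0.22), with tmTNF 4 inside the soluble TNF range. Hmmr, a spindle protein that also binds hyaluronan, gave 794.7, 1131, 845.4 and 2535 on control arrays 1 to 4, 804.7, 894.3, 481.7 and 1802 on tmTNF arrays and 1656, 1819, 1734 and 2108 on soluble TNF arrays. Its tmTNF 4 array also lay within the soluble TNF range, and the log2 value was -1.02 ± 0.41 (adjusted p = 0.199). Nusap1, a protein that bundles spindle microtubules, gave 1530, 5163, 1172 and 7413 on control arrays 1 to 4, 879.9, 1398, 991.7 and 3191 on tmTNF arrays and 3084, 3318, 4252 and 2832 on soluble TNF arrays. Control 2 and 4 were above all other arrays for Nusap1, and soluble TNF cells were closer to control in the mean (0.21 ± 0.56) than tmTNF cells were (-1.03 ± 0.56, adjusted p = 0.748, the lowest of the 48 genes for tmTNF minus control). Kif20a, Kif2c, Tpx2 and Prc1 had tmTNF minus soluble TNF values of -1.12 ± 0.53, -0.67 ± 0.48, -0.56 ± 0.43 and -0.84 ± 0.43.

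Cytokinesis genes close the division. Ect2, the exchange factor that activates RhoA at the cleavage furrow, gave 896.8, 782.6, 903.1 and 1952 on control arrays 1 to 4, 534, 1169, 447.4 and 1699 on tmTNF arrays and 1886, 1831, 1855 and 1738 on soluble TNF arrays. Control 4 stood apart from the other control arrays, and every tmTNF array was below every soluble TNF array (log2 -1.12 ± 0.41, adjusted p = 0.164). Anln, an actin-binding scaffold of the contractile ring, and Racgap1, of the central spindle, had values of -0.97 ± 0.45 and -0.72 ± 0.51.

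**Figure D3:**
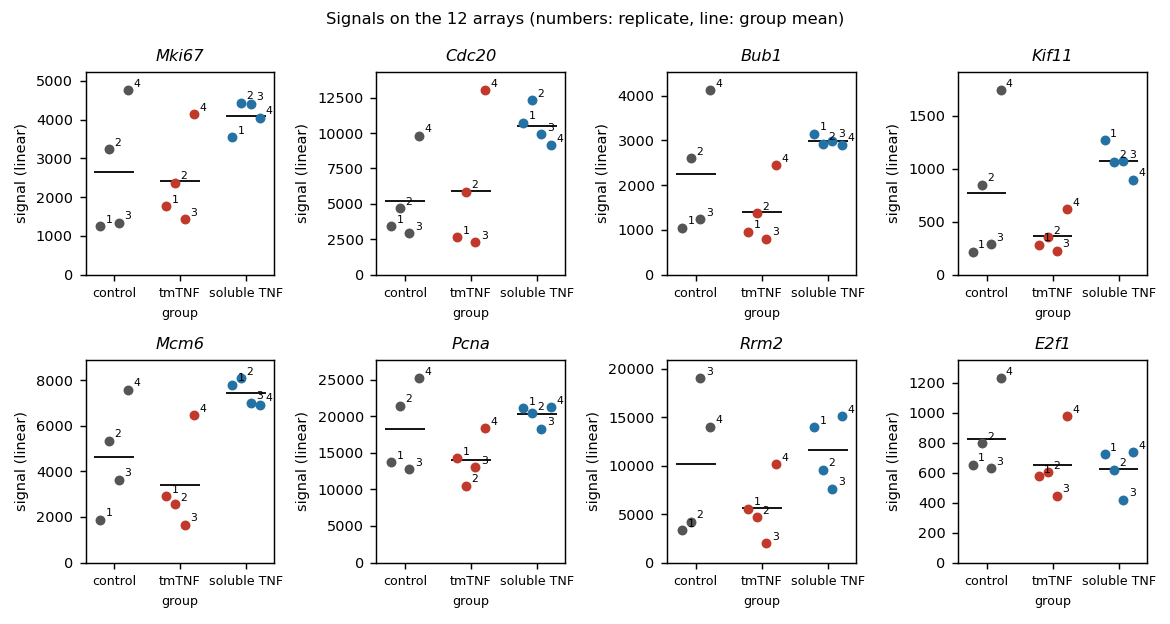
Linear signals of 8 of the genes on the 12 arrays, with numbered points for replicates and a line at each group mean. Bub1, Kif11 and Mcm6 show all tmTNF arrays below all soluble TNF arrays, and control 3 stands highest for Rrm2 alone among the 8.

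The S-phase genes start with the MCM helicase, the ring of 6 proteins loaded on DNA before replication. Mcm6 gave 1879, 5339, 3631 and 7589 on control arrays 1 to 4, 2910, 2556, 1659 and 6466 on tmTNF arrays and 7793, 8081, 7011 and 6929 on soluble TNF arrays. Its tmTNF arrays all lay below its soluble TNF arrays, and its tmTNF minus soluble TNF value of -1.31 ± 0.43 had the lowest adjusted p of the 48 genes in any comparison (adjusted p = 0.14). Mcm3 gave 1654, 3755, 1694 and 5052 on control arrays 1 to 4, 3066, 1778, 1845 and 3568 on tmTNF arrays and 5021, 4612, 4202 and 3840 on soluble TNF arrays, also with no overlap between tmTNF and soluble TNF cells (log2 -0.84 ± 0.36, adjusted p = 0.229). These 2 genes carry the E2F letters printed above. Mcm4 gave 1073, 2718, 2837 and 6762 on control arrays 1 to 4, 2527, 1567, 1207 and 3693 on tmTNF arrays and 7300, 5145, 3426 and 6212 on soluble TNF arrays. Mcm5 gave 1101, 6154, 1872 and 8409 on control arrays 1 to 4, 3014, 2192, 1363 and 6219 on tmTNF arrays and 8352, 8445, 7267 and 5854 on soluble TNF arrays. Both overlapped, because tmTNF 4 reached the lower end of the soluble TNF values, and their log2 values were -1.37 ± 0.50 (adjusted p = 0.167) and -1.43 ± 0.60 (adjusted p = 0.219). Mcm2 gave 1666, 2480, 1621 and 3559 on control arrays 1 to 4, 1583, 1979, 1298 and 3045 on tmTNF arrays and 3135, 3634, 2642 and 2762 on soluble TNF arrays, with a smaller difference of -0.68 ± 0.30 (adjusted p = 0.239). Over the 6 MCM genes the median was 0.85 in soluble TNF against control cells and -1.16 in tmTNF against soluble TNF cells, and 5 of the 6 (all but Mcm7, -1.001 ± 0.49) had an unadjusted p under 0.05 in the latter, against 7.49% of all genes that were lower at that threshold. The 6 genes are not independent, since they vary together across arrays.

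The clamp and nucleotide genes supply the replication fork. Pcna, the sliding clamp, gave 13690, 21450, 12740 and 25190 on control arrays 1 to 4, 14270, 10510, 13030 and 18360 on tmTNF arrays and 21080, 20420, 18320 and 21220 on soluble TNF arrays. It varied least of the 48 genes, 2.4-fold from the lowest to the highest array, and differed by -0.56 ± 0.22 between tmTNF and soluble TNF cells (adjusted p = 0.199). Rrm1, the large subunit of ribonucleotide reductase, gave 1893, 5071, 3351 and 7984 on control arrays 1 to 4, 2849, 2865, 1866 and 6944 on tmTNF arrays and 5886, 8140, 6221 and 5645 on soluble TNF arrays. It followed the common order of arrays, with control 4 and tmTNF 4 high, and differed by -0.99 ± 0.44 (adjusted p = 0.239). Rrm2, the small subunit of the same enzyme, gave 3317, 4183, 19000 and 13990 on control arrays 1 to 4, 5514, 4677, 1990 and 10130 on tmTNF arrays and 13940, 9585, 7599 and 15100 on soluble TNF arrays. It was the 1 gene of the 48 with its highest signal on control 3, an array that was low for 45 of the genes, and its tmTNF minus soluble TNF value of -1.22 ± 0.59 had adjusted p = 0.27. Tyms had values of 0.54 ± 0.49 in soluble TNF against control cells and -0.63 ± 0.49 in tmTNF against soluble TNF cells.

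The G1/S cyclins, E2f1 and the licensing factors showed the smallest median differences of the role groups in both comparisons with soluble TNF cells, with values of 0.32 against control and -0.52 in tmTNF against soluble TNF cells. E2f1, the transcription factor of S-phase entry, gave 654.9, 795.6, 628.6 and 1231 on control arrays 1 to 4, 576.9, 604, 444 and 978.2 on tmTNF arrays and 723, 619.3, 419.7 and 735.3 on soluble TNF arrays. It was the exception in both comparisons with soluble TNF cells: its mean was lower than in control (-0.38 ± 0.30), and the tmTNF minus soluble TNF value was 0.03 ± 0.30. The latter sign was not stable. All 48 values were negative with quantile or same-median scaling, with the mean of a gene's probe sets, with array weights, without tmTNF 4, without soluble TNF 3, and without the 3 arrays of lowest endothelial marker sum. The other probe set of E2f1 that passed the filter gave -0.16. Ccne1, cyclin E1, which starts S phase with Cdk2, gave 124.3, 734.8, 251.9 and 1113 on control arrays 1 to 4, 457.9, 185.3, 313.2 and 562.4 on tmTNF arrays and 675.3, 454.4, 288.2 and 768.1 on soluble TNF arrays. It scattered in all 3 groups, and its soluble TNF minus control value was 0.32 ± 0.60. Cdc6, which loads the MCM ring, gave 160.7, 988, 620 and 1646 on control arrays 1 to 4, 442.4, 581.1, 318.9 and 1333 on tmTNF arrays and 1411, 962, 810.5 and 1171 on soluble TNF arrays. This was the widest range of the 48 genes, 10.2-fold, and its soluble TNF minus control value was 0.72 ± 0.60 (adjusted p = 0.64). Ccne2 and Cdt1 had values of 0.07 ± 0.46 and 0.41 ± 0.45 in the same comparison.

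The genes not given array by array were 20 in all. Their log2 fold changes ran from -0.56 to 0.15 for tmTNF minus control, from 0.07 to 0.995 in soluble TNF against control cells and from -1.12 to -0.28 for tmTNF minus soluble TNF, and their highest array was 3.87 to 9.39 times their lowest.

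**Figure D4:**
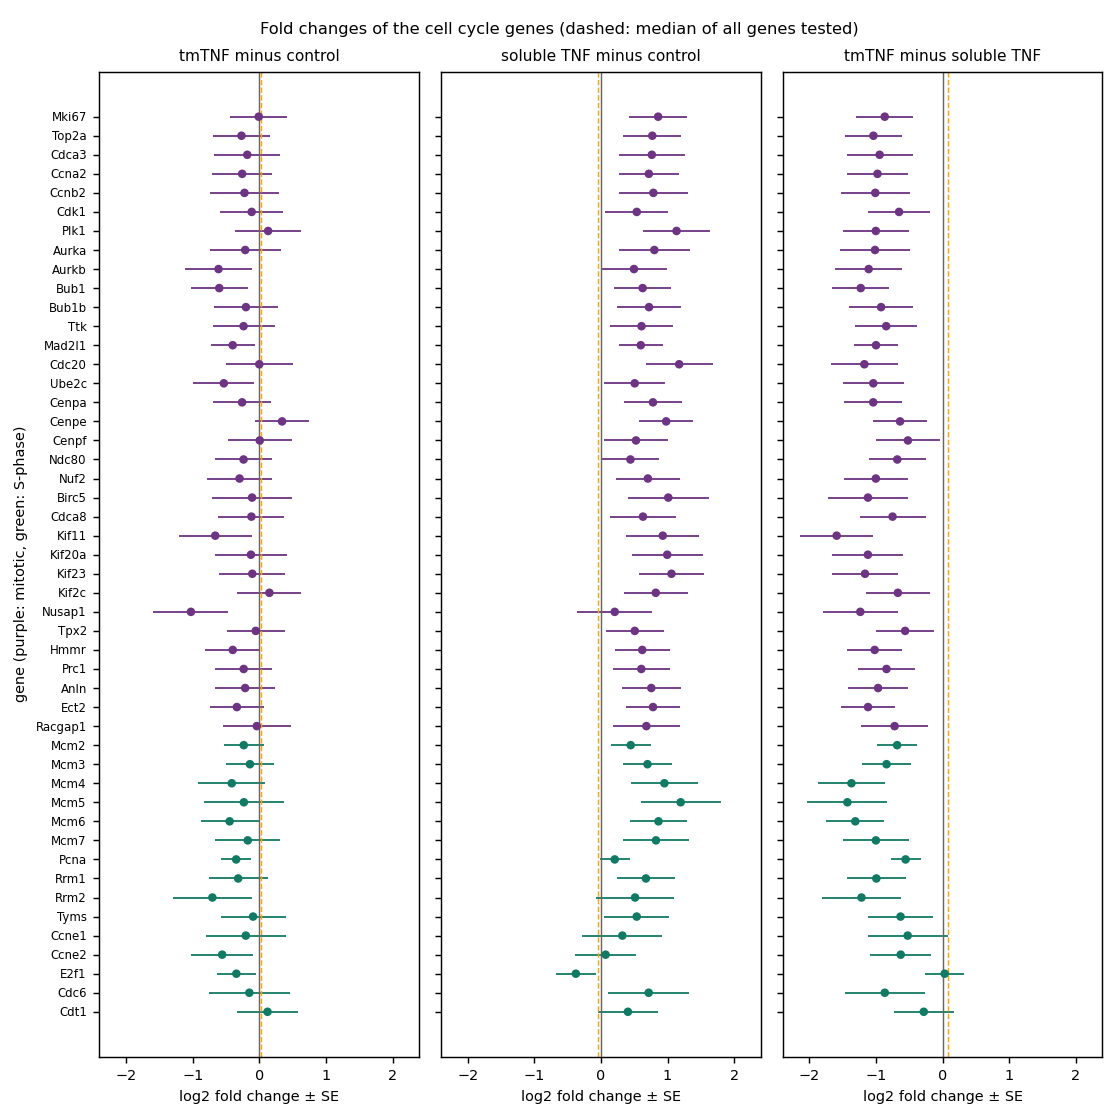
Log2 fold change and SE of each of the 48 genes in the 3 comparisons, with mitotic genes in purple, S-phase genes in green and a dashed line at the median of all genes tested. Points lie right of 0 in the middle panel except E2f1, and left of 0 in the right panel except E2f1.

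Soluble TNF cells had higher mean levels of cell cycle genes than control cells, by a median log2 value of 0.70 over the 48 genes against -0.05 over all genes tested. The value was positive in 33 of 33 mitotic and 14 of 15 S-phase genes, against 45.8% of all genes. None of the 48 was called, where 0.039% of all genes were. At an unadjusted p under 0.05, 3 were higher (Cenpe, Cdc20 and Plk1), a share near the 5.4% of all genes. In 0 of 48 did all soluble TNF arrays lie above all control arrays, against 3.67% of all genes. The size of the difference rested on single control arrays. Without control 1 the median over the 48 genes was 0.43 and the S-phase median 0.10, and without control 4 they were 1.04 and 0.999. Without both control 1 and 3, an omission chosen after seeing the data for their leukocyte marker sums, the median over the 48 genes was 0.03, with 28 of 48 values positive, and the S-phase median was -0.06. The Actb 3′ to 5′ ratio was lower on every soluble TNF array than on every control array. The Gapdh ratio overlapped, at 0.776 to 0.839 in soluble TNF and 0.757 to 0.843 in control cells. Acta2, the smooth muscle actin, was 2.01 ± 0.63 higher on the log2 scale in soluble TNF cells (adjusted p = 0.277), with overlapping groups. The part of RNA integrity or of Acta2 in the difference was not tested.

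Cells with tmTNF had lower mean levels than soluble TNF cells, by a median log2 value of -0.99 over the 48 genes against 0.08 over all genes. The mitotic median was -1.002 and the S-phase median -0.84. None of the 48 was called, where 1.22% of all genes were. At an unadjusted p under 0.05, 19 of 48 were lower (12 mitotic and 7 S-phase), against 7.49% of all genes, and these genes move together across arrays. In 7 of 48 every tmTNF array lay below every soluble TNF array (Aurkb, Bub1, Mad2l1, Kif11, Ect2, Mcm3 and Mcm6), against 5.86% of all genes. Leaving out 1 array at a time, the median over the 48 genes ran from -1.33 to -0.71 and no member was called. Members passed the threshold under 4 other settings: 6 with array weights, 4 (Anln, Cdc20, Cdca8 and Ect2) without the 3 arrays of lowest endothelial marker sum, 1 (Kif11) with only these 2 groups in the fit, and 1 (Kif11) without control 1 and 3. Array weights called 1176 of all 10269 genes, so the share of members lay near that of all genes. Across all settings other than leaving out 1 array, 94 to 1176 genes were called. The count without the 3 arrays lay within that range, and no result about the members is read from those 4 calls. In the 2 fits that called Kif11 alone, the share of members was below that of all genes (counts given below). Without the 3 arrays, only tmTNF 1 and 3 remain in the tmTNF group. Leukocyte marker sums were higher on every tmTNF array than on every soluble TNF array. Acta2 was lower on every tmTNF array (101.2 to 238.3) than on every soluble TNF array (736.2 to 1668; log2 -2.81 ± 0.63, adjusted p = 0.0543), while the sum of its marker list overlapped (1805 to 2436 against 2187 to 4018) and 4 of its 8 markers, Myh11, Cnn1, Des and Rgs5, were under 100 on all 12 arrays. The part of either in the result was not tested.

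Between tmTNF and control cells no difference stood out. The median over the 48 genes was -0.23 against 0.03 over all genes, 43 values were negative and 5 positive, and the lowest adjusted p was 0.748. None of the 48 was called, where 0.195% of all genes were, and 0 of 48 had an unadjusted p under 0.05 in either direction, against 7.56% of all genes. The direction rested on control 4 and tmTNF 3. Without control 4 the median was 0.13 and 34 of 48 values were positive. Without tmTNF 3, 24 values were positive and 24 negative, with a mitotic median of 0.06 and an S-phase median of -0.06. In contrast, without control 3, tmTNF 2 and tmTNF 4, the arrays of lowest endothelial marker sum, the median was -0.95 and all 48 were negative. That omission was chosen after seeing the data and leaves only tmTNF 1 and 3 in the tmTNF group. It removes tmTNF 4, which lay above the other 3 tmTNF arrays in all 48 genes. The negative direction was therefore largely set by the choice of arrays, and no conclusion is drawn from it.

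With all 12 arrays, the mitotic minus S-phase difference overlapped between the groups. The mitotic minus S-phase score was 0.24, -0.27, -0.36 and 0.06 on control arrays 1 to 4, -0.39, 0.32, -0.28 and 0.25 on tmTNF arrays, and -0.10, 0.16, 0.31 and 0.07 on soluble TNF arrays. The means were -0.08 ± 0.28, -0.03 ± 0.36 and 0.11 ± 0.17 (SD, n = 4 each). The medians of the 2 lists differed by 0.02 for tmTNF minus control, by 0.19 in soluble TNF against control cells and by -0.16 for tmTNF minus soluble TNF (mitotic minus S-phase). All were smaller in size than the control and tmTNF SD of that score, but 0.19 exceeded the soluble TNF SD of 0.17. The SDs are of per-array mean scores and the differences are of medians over genes, so they are unlike measures. The size of these differences depended on single arrays, and for tmTNF minus control so did the sign. In the comparisons with soluble TNF cells the sign was the same under all settings run. For tmTNF minus soluble TNF the value was -0.10 without tmTNF 1, -0.30 without tmTNF 2 and -0.33 without tmTNF 4. The value was -0.53 without the 3 arrays of lowest endothelial marker sum, larger in size than the SD of each group. In soluble TNF against control cells it was 0.36 without control 1, 0.11 without control 3, 0.09 without control 4, 0.12 without soluble TNF 2 and 0.07 without soluble TNF 3. For tmTNF minus control, leaving out 1 array gave -0.04 to 0.20, with a negative sign without tmTNF 2 or tmTNF 4, and leaving out the 3 arrays gave -0.27.

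The spread between replicates differed by group. The SD over the 4 arrays of a group, on the log2 scale, had a median over the 48 genes of 0.92 in control, 0.80 in tmTNF and 0.19 in soluble TNF cells. Over all genes the medians were 0.50, 0.42 and 0.29. Soluble TNF had the smallest SD of the 3 groups in 47 of 48 cell cycle genes and in 60.0% of all genes. Mitotic genes had medians of 0.91, 0.84 and 0.16, and S-phase genes 1.07, 0.67 and 0.30. The ratio of the highest to the lowest array had a median of 5.18 over the 48 genes. With 4 arrays a group, no test of these SDs was made.

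**Figure D5:**
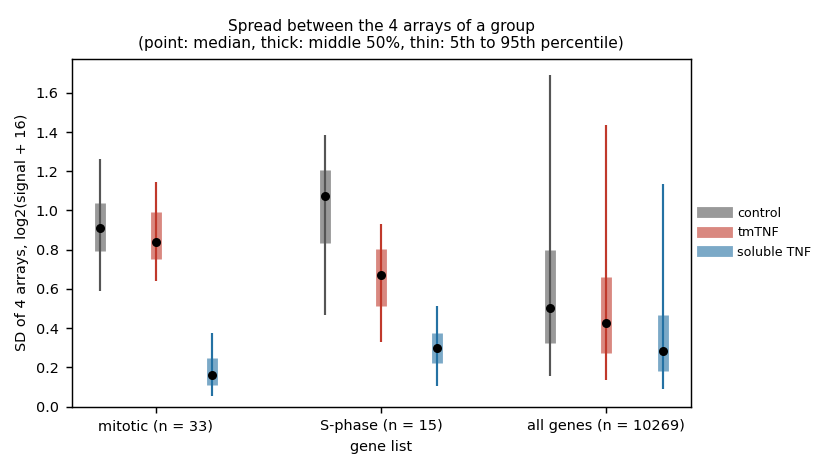
SD of log2(signal + 16) over the 4 arrays of each group, for the 33 mitotic genes, the 15 S-phase genes and all 10269 genes (point, median; thick bar, middle 50%; thin line, 5th to 95th percentile). In soluble TNF cells the medians of 0.16 and 0.30 lie far below those of control and tmTNF cells, while over all genes the 3 medians are 0.50, 0.42 and 0.29.

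Other cell cycle genes, outside the 49, had medians of the same signs. Of 30 further replication genes 0 were called in each comparison, their medians were -0.34 (tmTNF minus control), 0.43 (soluble TNF minus control) and -0.75 (tmTNF minus soluble TNF), and 30 of 30 were higher in soluble TNF than in control cells. Their lowest p values belonged to Lig1, the ligase that joins Okazaki fragments (-1.68 ± 0.48, adjusted p = 0.0988, for tmTNF minus soluble TNF), and Asf1b, a histone chaperone (-1.25 ± 0.47, adjusted p = 0.174). Of 37 further mitotic genes 0 were called, with medians of -0.23, 0.63 and -0.80, and Cep55, of abscission (-1.36 ± 0.44, adjusted p = 0.133), and Kif4, a chromosome-bound kinesin (-1.21 ± 0.40, adjusted p = 0.136), had the lowest p values. At an unadjusted p under 0.05, 9 of the 30 and 9 of the 37 were lower in tmTNF than in soluble TNF cells, against 7.49% of all genes. G1 regulators had smaller medians against soluble TNF cells (21 genes, 0 called, medians -0.23, 0.30 and -0.34). There E2f3 had 0.45 ± 0.17 for tmTNF minus control (adjusted p = 0.58) and Rb1, the retinoblastoma protein that holds E2F back, -0.72 ± 0.30 for tmTNF minus soluble TNF (adjusted p = 0.208).

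Inhibitors of the cycle gave mixed values. Of 17 inhibitor and arrest genes 0 were called, and the medians were -0.15, -0.33 and 0.16. For tmTNF minus soluble TNF the values ran from -2.03 to 3.90. At an unadjusted p under 0.05 (limma), 5 were higher and 2 lower there, against 1272 and 769 of all 10269 genes. In 3 genes every tmTNF array lay above every soluble TNF array and in 1 below, against 1054 and 602 of all genes. Ccng1, cyclin G1, a target of p53, had the lowest p of the list, with signals of 3979, 5638, 10210 and 4973 on control arrays 1 to 4, 8062, 2114, 1571 and 2019 on tmTNF arrays and 11540, 10670, 10480 and 9922 on soluble TNF arrays. It was lower on every tmTNF array than on every soluble TNF array, and just missed the threshold (log2 -1.96 ± 0.44, adjusted p = 0.0554). Cdkn1b, the inhibitor p27, gave 1816, 1010, 1041 and 588.6 on control arrays 1 to 4, 691.3, 895.7, 1046 and 785.8 on tmTNF arrays and 518, 522.4, 597.8 and 412.5 on soluble TNF arrays. Its soluble TNF minus control value was -0.997 ± 0.30 (adjusted p = 0.261), the opposite sign to that of most cell cycle genes.

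The probe sets of Cdc20, Aurkb, Kif2c, Mcm5, Rrm2 and Ccne1 (type _x_at) and of Cdca8, Prc1, Mcm3 and Mcm7 (type _s_at) may also bind RNA of related sequences, so these genes are less certain. Genes with more than 1 probe set gave a check on the choice of probe set. Beside the chosen ones, 43 further probe sets of 29 members passed the filter. Their difference had the same sign as the chosen probe set in 42 of 43 for soluble TNF minus control, in 41 of 43 for tmTNF minus soluble TNF and in 36 of 43 for tmTNF minus control.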

How the data were processed

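RNA of 12 samples of cultured mouse endothelial cells was measured on 1 Affymetrix array each, in 3 groups of 4, and the number of arrays limits the precision. The deposited values are linear signal intensities for each probe set. They were computed with MAS5 according to the labels (per the submitters' processing notes), and the version, settings and genome build are not given in the sources used here. Deposited signals spanned 0.1 to 95672, with a 2% trimmed mean of 1000 on every array, so the authors' values had been scaled array by array.

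The 64 control probe sets were left out, arrays were brought to a 2% trimmed mean of 500, and signals were used as log2(signal + 16), which understates changes of dim genes. Of 45101 probe sets, 34945 had 1 gene symbol, 932 several and 9160 none in the platform annotation. Of these, 34741 gene identifiers matched the RefSeq table of GRCm38.p6, which changed 0 symbols. Probe sets with at least 4 arrays at 100 or more were kept, and the one with the highest mean stood for its gene, which left 10269 genes. The 3 groups were fitted together with limma 3.58.1 in R 4.3.3 (lmFit and trended eBayes). Tests were two-sided, p-values were adjusted by Benjamini-Hochberg across the 10269 genes, and the threshold was 0.05. The fit was also run on simulated data, with genes drawn independently and the same spread for a gene in the 3 groups. The members vary together and their spread differs by group, so that run is no check on them. Adjusted p-values are from the fit of the measured arrays, unless another setting is named.

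The members, the other gene lists and the marker lists were chosen with earlier results of these data known, so no p-value is given for a list. Values on every array are given for 8 genes chosen by name (1 of them without a probe set), for members with an unadjusted p under 0.05 in any comparison and for the member with the largest difference in each role group, 28 genes in all; from each other list the 2 genes with the lowest p are named. Promoter letters are RefSeq's. Alternatives were other scalings, pseudocounts of 1 and 64, no filter, a filter at 250, other ways to merge probe sets, no trend, array weights, 2-group fits and leaving out arrays.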

Additional observations from a re-analysis of the deposited data

Results flagged for a closer look

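Of 93 groups of 4 arrays 1 had an array far from the others by Dixon's ratio of gap to range, where chance flags about 1 in 20. It was Ect2, the RhoA exchange factor of cytokinesis, in control cells. Control 4 gave a signal of 1952 and the other 3 control arrays 782.6 to 903.1, a ratio of 0.844, above the critical value for 4 arrays.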

How the results depend on the processing

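No paired analysis was possible because the labels give no replicate numbers. Both list medians for tmTNF minus soluble TNF were negative under all settings run, and the 19 members with an unadjusted p under 0.05 there and the 3 for soluble TNF minus control kept their sign under every setting. Leaving out 1 array, genes called over all genes ran from 16 to 66 (tmTNF minus control, 20 with all arrays), from 0 to 22 (soluble TNF minus control, 4) and from 28 to 233 (tmTNF minus soluble TNF, 125), and members called from 0 to 0 in each. The mitotic medians ran from -0.58 to 0.13, from 0.46 to 1.08 and from -1.35 to -0.72, the S-phase medians from -0.67 to 0.02, from 0.10 to 1.00 and from -1.02 to -0.59, and their difference from -0.04 to 0.20, from 0.07 to 0.36 and from -0.33 to -0.10. Both tmTNF minus control medians turned positive without control 4, and the mitotic one also without tmTNF 3 (0.06).

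Without the 3 arrays of lowest endothelial marker sum (chosen after seeing the data), 4 genes were called for tmTNF minus control and 17 for soluble TNF minus control. For tmTNF minus soluble TNF 4 members were called, and the count over all genes lay within 94 to 1176. The mitotic median for tmTNF minus control was -1.02. The difference of the lists was -0.27 there and -0.53 for tmTNF minus soluble TNF. Without control 1 and 3 (chosen after seeing the data), the S-phase median for tmTNF minus control was -0.98, 421 genes were called for tmTNF minus soluble TNF, with 1 member, and 0 for soluble TNF minus control. Fits of only 2 groups called 439 genes for tmTNF minus soluble TNF, with 1 member (Kif11, adjusted p = 0.0301), and 2 for soluble TNF minus control. Array weights called 1176 genes for tmTNF minus soluble TNF, with 6 members (Bub1, Kif11, Mad2l1, Mcm4, Mcm6 and Pcna), and scaling to the same median called 239. With that scaling the all-gene medians became -0.12, 0.04 and -0.15, and the member medians -0.37, 0.79 and -1.22. The causes of these changes were not tested. Low signal was a limit for Tyms, at 100 or more on 6 arrays, while the other 47 members reached 100 on every array. The floor of 100 is a setting, not a measured background. Ccne1 and Cdc6 came near it on control 1 (124.3 and 160.7), the array that sets the lower end of their ranges.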
